A study of Mus musculus with 2 samples.

Results

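The genes that encode the proteins of the cytosolic ribosome were followed across the cell types of the mouse small intestine, in an intestine that the labels describe as having lost Mdm2, with activation of p53, and in one described as keeping it. Members were all gene symbols of the count tables that start with Rpl or Rps followed by a digit, together with Rplp0, Rplp1, Rplp2 and Rpsa. The S6 kinase genes (10 symbols starting with Rps6k), Rps27l (1 symbol) and symbols marked as pseudogenes with -ps (9 symbols) were left out. This gave 85 members among 31053 symbols, of which 52 were assigned by symbol to the large subunit and 32 to the small subunit. The remaining member, Rps19bp1, encodes a protein that binds Rps19 and is not itself a ribosomal protein, so it was counted among the members but in neither subunit. Rpl7l1, a relative of Rpl7 that acts in ribosome assembly, stayed among the 52 by its symbol. Fau, which encodes a ribosomal protein, and Rack1 do not carry such symbols and were examined separately.

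The study comprised 1 Tg mouse, of genotype Mdm2+/- Cag-CreERTg, and 1 FMTg mouse, of genotype Mdm2FM/- Cag-CreERTg. Both animals were C57BL/6j aged 60 days, both carried a minus allele of Mdm2 and the Cag-CreERTg transgene, and both received tamoxifen, at 6 mg per 40 g of body weight, 24 hours before the small intestine was taken. The CAG promoter is active in most cell types, so Cre activity is not limited to the epithelium. Single cells were captured with a droplet protocol that counts unique molecular identifiers (UMIs) at the 3' end of each transcript. With 1 library per genotype no test was possible, no difference has a replicate check, and the 95% intervals given below cover counting error only.

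A cytosolic ribosome is built from a small subunit, which reads the messenger RNA, and a large subunit, which forms peptide bonds. Each subunit carries 1 copy of nearly every one of its proteins, so cells make these proteins in matched amounts. Most of the messenger RNAs begin with a run of pyrimidines, the terminal oligopyrimidine or TOP motif, through which the mTOR pathway controls their translation and stability. Several ribosomal proteins also bind Mdm2 when they are not built into ribosomes. Rpl5 and Rpl11 do so together with the 5S ribosomal RNA and restrain the ubiquitin ligase activity of Mdm2 towards p53.

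The start sites of a few members are shown because the results below turn on these genes and because the run of pyrimidines differs among them. The promoter table of RefSeq (GRCm38.p6) matched 65 of the 85 members. Each window spans 40 bases before to 25 bases after the annotated start, on the strand of the gene, and the capitals mark the longest run of C and T between 10 bases before and 25 bases after the start, where it has at least 5 bases. Rps18, Rps27 and Rpl38 lie among the members with the highest FMTg to Tg ratios, Rps15a and Rpl12 among those richest in leukocytes, and Rpl27 and Rpl10 among those with the lowest ratios. Their windows are chr17:33955641-33955705 (minus strand), chr3:90213624-90213688 (minus), chr11:114668540-114668604 (plus), chr7:118116123-118116187 (minus), chr2:32961672-32961736 (plus), chr11:101442205-101442269 (plus) and chrX:74270776-74270840 (plus).
Rps18: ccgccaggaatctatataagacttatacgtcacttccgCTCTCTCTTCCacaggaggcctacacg
Rps27: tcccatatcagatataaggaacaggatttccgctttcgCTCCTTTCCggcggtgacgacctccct
Rpl38: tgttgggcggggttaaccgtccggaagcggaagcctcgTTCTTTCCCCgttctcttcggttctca
Rps15a: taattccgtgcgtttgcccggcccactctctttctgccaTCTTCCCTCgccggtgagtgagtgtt
Rpl12: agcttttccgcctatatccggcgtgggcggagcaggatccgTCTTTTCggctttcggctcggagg
Rpl27: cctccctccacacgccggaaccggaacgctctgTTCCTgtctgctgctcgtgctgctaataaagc
Rpl10: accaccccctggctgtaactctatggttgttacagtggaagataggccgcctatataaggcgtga

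The run was 11 bases long in Rps18, 10 in Rpl38, 9 in Rps27 and Rps15a, 7 in Rpl12 and 5 in Rpl27, while Rpl10 had none in this window. A run found this way depends on the annotated start, which may differ from the start in use. The Rpl27 window ends before the gene start that the GENCODE vM21 annotation gives, at 101442298. These genes were picked by their values, and a link between run and ratio was not tested. Over the table, a run of at least 8 pyrimidines between 10 bases before and 25 bases after the start was found in 40.0% of the 65 members and in 14.9% of 27025 genes. In the 300 bases around the start, searched on both strands, the letters CCGGAAG, the core of ETS factor sites, stood in 38.5% of members and 9.93% of all genes. The letters AAGATGG, the core of YY1 sites, which can share bases with the former, stood in 15.4% and 7.28%. GGGCGG, the core of SP1 sites, was found in 61.5% and 38.2%, and TATAAA in 10.8% and 15.7%. Members with several annotated starts had several windows, 1.17 per member on average, and these matches describe letters only.

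In the GENCODE vM21 annotation of mm10 the 85 members lay on 19 chromosomes. In 30 of them the gene held snoRNA genes on the same strand, 58 in all, small RNAs that guide the modification of ribosomal RNA. At least 1 copy with a -ps symbol was annotated for 60 members, 298 copies in total, so that reads of these genes could be divided among copies during counting. Coding lengths ran from 25 codons in Rpl41 to 419 in Rpl4.

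The Tg library held 54013005 UMIs in 6270 barcodes and the FMTg library 49805718 UMIs in 6382 barcodes. After filtering, 2913 and 2675 cells with median depths of 4938 and 4710 UMIs were kept, and the libraries shared 14 barcode sequences. The median share of mitochondrial UMIs was 11.7% and 14.8%. Mdm2 was higher in FMTg enterocyte-like cells (1447 and 2134 UMIs, log2 ratio 0.95), which does not check the genotype because the counted 3' end may lie outside the deletion. Cdkn1a, the p21 gene and a p53 target, was higher by 0.77 in enterocyte-like cells, 1.17 in T-cell-like cells and 0.07 in B-cell-like cells (interval -0.26 to 0.41). Clusters of cells were named by marker genes, and a name such as enterocyte-like stands for such clusters. Sums of 10 epithelial and 10 leukocyte genes split all cells into an epithelial and a leukocyte compartment.

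Of the 85 members, 83 had at least 20 UMIs over all kept cells and 82 at least 100. Rpl10l, a testis paralog of Rpl10, had 0 UMIs, and Rpl3l, the muscle paralog of Rpl3, had 4 in Tg and 2 in FMTg. The large-subunit members with the most UMIs were Rpl13 (61946 in Tg and 64092 in FMTg), Rpl37a (52031 and 72999) and Rpl23 (57064 and 65851). The small-subunit members with the most were Rps29 (59135 and 105595), Rps24 (73621 and 82043) and Rps27 (53585 and 83593). Each UMI marks 1 captured 3' end, so these counts were not divided by length.

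The share of all UMIs that came from the members differed widely between cell classes in both libraries. It was lowest in goblet-like cells, which secrete mucus, at 2.003% in Tg and 2.18% in FMTg, and in the absorptive, enterocyte-like cells, at 2.49% and 3.28%. Crypt progenitor-like cells, which divide and renew the epithelium, had 21.9% and 23.5%. Among leukocytes the share ran from 2.50% and 3.67% in neutrophil-like cells through 12.7% and 13.4% in macrophage-like and 17.9% and 21.7% in T-cell-like cells to 26.0% and 29.3% in B-cell-like cells. Tuft-like cells, the chemosensory cells of the epithelium, had 8.99% and 10.4%, enteroendocrine-like cells 6.45% and 5.57%, and plasma cell-like cells 8.21% and 11.2%. The order of the classes was nearly the same in the libraries, and the crypt and B-cell-like classes stood highest in each. The classes rest on unequal numbers of cells: 10 Tg and 40 FMTg cells for crypt progenitor-like, 16 and 15 for enteroendocrine-like, 53 and 7 for neutrophil-like, 21 and 31 for plasma cell-like, 182 and 41 for macrophage-like, 121 and 44 for goblet-like and 51 and 62 for tuft-like cells. The larger classes were enterocyte-like with 403 and 443, T-cell-like with 1295 and 1301, and B-cell-like with 546 and 607 cells.

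**Figure D1:**
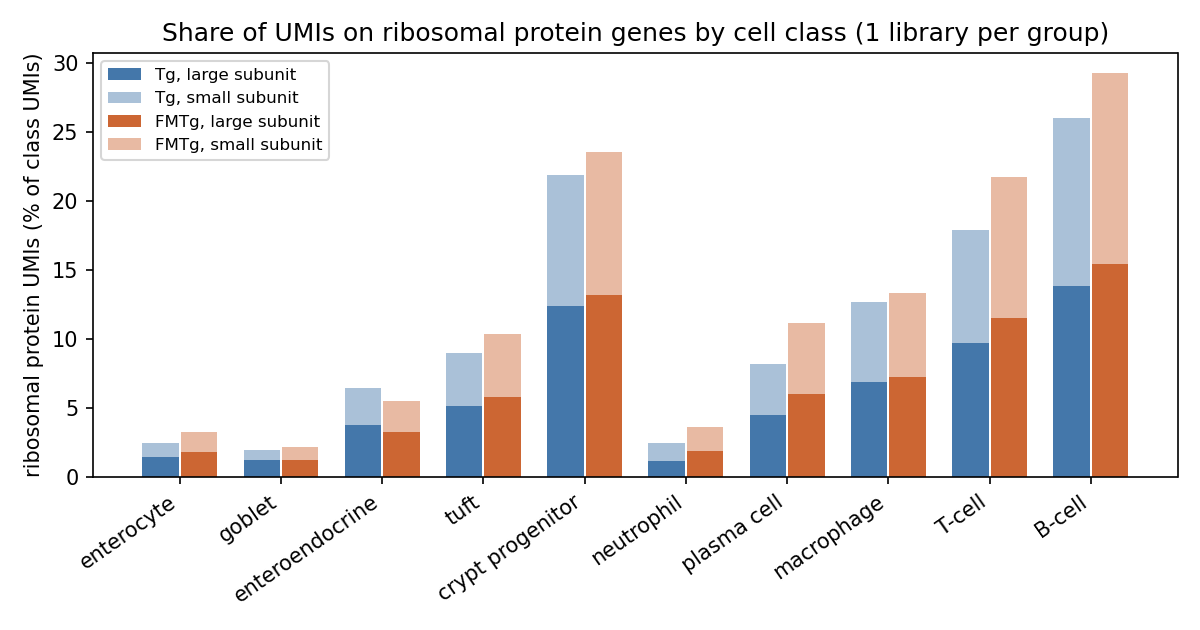
Share of UMIs on ribosomal protein genes (y axis, % of the UMIs of a class) in 10 cell classes (x axis), with 1 bar per library divided into large subunit (dark) and small subunit (pale). The bars are highest in B-cell-like and crypt progenitor-like cells, and the FMTg bar is higher in every class except enteroendocrine-like cells.

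The members together took a larger share of UMIs in FMTg than in Tg. Over all kept cells it was 9.35% in the Tg and 13.1% in the FMTg library (log2 ratio 0.49). In the epithelial compartment it was 3.45% and 6.51% (0.92), and in the leukocyte compartment 18.5% and 23.2% (0.33). Crypt progenitor-like cells, 10 in Tg and 40 in FMTg, held 88902 and 434699 member UMIs, beside 613749 and 957891 in the epithelial compartment. The number of these cells thus enters the epithelial and all-cell ratios, and its part was not tested. By class the log2 ratio was 0.40 in enterocyte-like, 0.28 in T-cell-like, 0.17 in B-cell-like, 0.21 in tuft-like, 0.12 in goblet-like, 0.10 in crypt progenitor-like, 0.07 in macrophage-like, 0.44 in plasma cell-like and 0.55 in neutrophil-like cells, and -0.21 in enteroendocrine-like cells. Of the 17 clusters with at least 20 cells in each library, all 17 had a larger share in FMTg. A smaller cluster of macrophage-like cells, with 21 and 12 cells, had 14.6% in Tg and 9.20% in FMTg.

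In enterocyte-like cells the sum and the single cells went different ways. The median cell had 1.67% of its UMIs on members in Tg and 1.35% in FMTg, with quartiles of 1.08% and 2.68% in Tg and 0.85% and 2.42% in FMTg. Cluster 8 had 3.54% in Tg (124 cells) and 9.35% in FMTg (71 cells), a log2 ratio of 1.40. It held 160642 of the 340590 member UMIs of the class in Tg and 202621 of 343185 in FMTg. Cluster 3 had 1.46% and 1.76% (171 and 107 cells) and cluster 13 had 2.83% and 3.14% (86 and 27 cells). Cluster 4 had 0.80% and 1.46%, with 22 Tg and 238 FMTg cells, so that it held 5.46% of the Tg and 53.7% of the FMTg enterocyte-like cells and may be that library rather than a cell type. The share was thus higher in FMTg within each of the 4 clusters, while the low-share cluster 4 made up most of the FMTg class. The median cell was higher in FMTg in clusters 3, 4 and 8, but in cluster 13 it had 2.12% in Tg and 1.59% in FMTg. In T-cell-like cells the median cell had 16.6% and 19.8%, and in B-cell-like cells 25.8% and 28.1%, so that there the cells and the sums pointed the same way. The make-up of the T-cell-like class differed, however. Cluster 0, with a member share of 16.6% in Tg, held 66.7% of its Tg and 49.6% of its FMTg cells. Cluster 6, with 34.5% in Tg, held 4.56% and 12.1%. Within T-cell-like clusters the log2 share ratio ran from 0.09 in cluster 6 to 0.22 in clusters 7 and 23, beside 0.28 for the class. The median cell was lower in FMTg, against the sum, in goblet-like cells (1.60% and 1.33%) and in plasma cell-like cells (9.39% and 6.87%). At a stricter mitochondrial limit of 10%, which left 55 Tg and 9 FMTg enterocyte-like cells, the log2 ratio of the share in this class was -0.07.

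The mitochondrial share, a sign of damaged cells, was also higher in FMTg, and the member share was therefore computed in bands of it over all barcodes past the UMI and gene minimums. Among leukocyte barcodes the log2 ratio of the member share was 0.35 below 10% mitochondrial UMIs, 0.31 from 10% to 25%, 0.50 from 25% to 50% and 0.31 above. Among epithelial barcodes it was 1.22, 0.72, -0.04 and 0.97 in the same bands. The leukocyte log2 ratio lay above 0 in each band, and the epithelial one in 3 of 4 bands. The bands pool cell classes whose numbers differ between the libraries, such as crypt progenitor-like cells with 10 Tg and 40 FMTg kept cells. The parts of cell damage and of class make-up in these ratios were not tested. Enterocyte RNA was also found in leukocyte-named cells. The 14 enterocyte markers summed to 3170 CPM (counts scaled to the class total) in Tg and 2142 in FMTg T-cell-like cells, to 3668 and 2196 in B-cell-like and to 1408 and 1272 in macrophage-like cells. They were higher in FMTg in plasma cell-like cells (908 and 2065 CPM), and stood at 6506 and 6746 CPM in neutrophil-like cells. Leukocyte gate genes were nearly level there, at 6278 and 6477 CPM in T-cell-like cells. The part of this RNA in the member share was not tested.

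Gene by gene, most members had a higher CPM in FMTg, the majority by less than 1.5-fold. A gene was called higher or lower where its CPM ratio reached 1.5-fold, among genes with at least 20 UMIs over the libraries. Over all cells 20 of 83 members were called higher and 0 lower, beside 12.1% of 14110 genes called higher and 9.75% called lower. The median log2 ratio was 0.45 over members and 0.06 over all genes, and 81 of the 83 members lay above 0. In enterocyte-like cells 19 of 82 members were higher and 0 lower, with a median of 0.37, beside 16.2% and 11.2% of 10489 genes and a median of 0.06. The members' share called higher there was near the background, while none was called lower and 75 of 82 lay above 0. The enterocyte-like median was -0.05 at the 10% limit and 0.87 without cluster 4, and the all-cell median was 0.15 at a 50% limit. In T-cell-like cells 9 of 83 were higher and 0 lower (median 0.21), beside 5.49% higher and 8.65% lower of 10927 genes and a median over all genes of -0.10. In B-cell-like cells 7 of 82 were higher and 0 lower (median 0.13), beside 5.12% and 10.6% of 9437 genes with a median of -0.10.

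The remaining classes varied more, and rest on fewer cells. Crypt progenitor-like cells had a member median of 0.07, with 5 of 82 higher (15.4% of all genes) and 0 lower (12.8%). Tuft-like cells had 0.14, with 7 of 82 higher (10.2%) and 0 lower (9.8%), and goblet-like cells 0.09, with 5 of 81 higher (14.4%) and 2 lower (19.6%). Macrophage-like cells had 0.04, with 4 of 82 higher (13.3%) and 1 lower (17.1%). In these 4 classes the members' share called higher stayed at or below the background. Plasma cell-like cells had a median of 0.43, with 21 of 79 higher (17.8%) and 0 lower (15.3%). Neutrophil-like cells had 0.78, with 37 of 60 higher (19.7%) and 5 lower (30.5%), and rest on 7 FMTg cells. Enteroendocrine-like cells had -0.21, with 3 of 79 higher (26.3%) and 14 lower (14.4%). The epithelial compartment as a whole had a median of 0.91, with 72 of 82 higher (22.9%) and 0 lower (7.7%), and the leukocyte compartment 0.28, with 11 of 83 higher (6.14%) and 0 lower (13.9%). The compartments pool classes whose numbers of cells differ between the libraries, so these counts do not stand for differences within a cell type. Within the enterocyte-like clusters the medians were 1.36 in cluster 8, with 79 of 82 higher (13.7% of all genes), 0.91 in cluster 4, with 61 of 82 (23.1%), and 0.17 in cluster 3, with 7 of 82 (8.67%) and 1 lower (9.72%). Cluster 13 had 0.09, with 11 of 82 higher (17.0%) and 1 lower (11.5%).

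Messenger RNAs of the small-subunit members made up slightly more of the member UMIs in FMTg, and no protein was measured. Fau, a small-subunit gene outside the symbol rule, is not in the small-subunit sums. In enterocyte-like cells these sums were 143749 UMIs in Tg and 150029 in FMTg, and the UMIs of Fau are given below. Shares with Fau counted are not given here, and could differ from these between libraries and between classes. The large subunit took 54.8% of the UMIs of subunit genes in Tg and 54.0% in FMTg over all cells, a difference in log2 odds of -0.05 (interval -0.05 to -0.04). In enterocyte-like cells the large-subunit share was 57.8% and 56.3% (-0.09), in goblet-like cells 61.3% and 59.1% (-0.13), in tuft-like cells 57.8% and 56.4% (-0.08) and in T-cell-like cells 54.3% and 53.1% (-0.07). It was 56.7% and 56.2% in crypt progenitor-like, 53.2% and 52.8% in B-cell-like and 55.0% and 54.0% in plasma cell-like cells. The interval of the difference held 0 in macrophage-like (54.6% and 54.2%), enteroendocrine-like (59.2% and 58.4%) and neutrophil-like cells (48.5% and 52.3%). Of the 17 clusters with at least 20 cells in each library, 15 had a lower large-subunit share in FMTg, and so had all 8 combinations of compartment and mitochondrial band. At the 10% limit the difference was 0.073 in enterocyte-like and 0.045 in B-cell-like cells, and -0.0036 over all cells. Between classes the spread was wider than between the libraries: epithelial classes lay between 56.2% and 61.3%, and leukocyte classes other than neutrophil-like cells between 52.8% and 55.0%. The medians over genes were close: 0.46 for 50 large-subunit and 0.43 for 32 small-subunit members over all cells, and 0.35 and 0.40 in enterocyte-like cells.

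**Figure D2:**
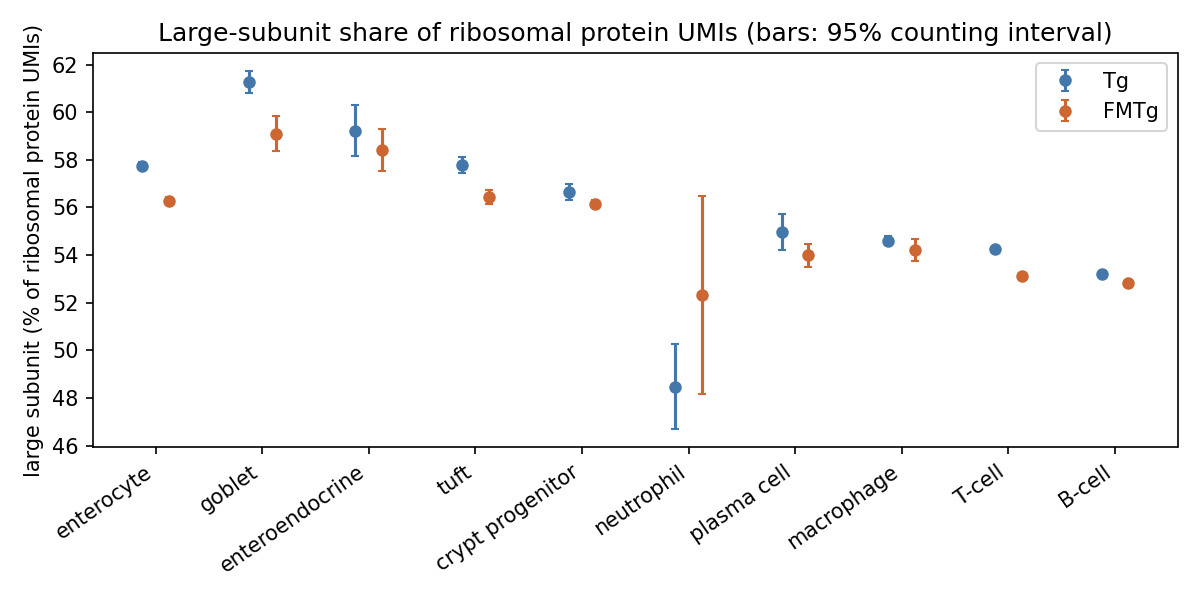
Large-subunit share of ribosomal protein UMIs (y axis, %) in 10 cell classes (x axis), with 1 point per library and bars for the 95% counting interval. The FMTg point lies below the Tg point in every class except neutrophil-like cells, and epithelial classes lie above leukocyte classes. Fau is not counted in either subunit.

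Single members differed far more than the subunit sums, and largely the same ones stood out in each class. Rps18, a protein of the small-subunit head, had 8948 UMIs in Tg and 22807 in FMTg over all cells, from 306 and 936 CPM. Its log2 ratio was 1.61 over all cells, 1.63 in enterocyte-like (839 and 1991 UMIs), 1.28 in T-cell-like (4063 and 9348) and 1.305 in B-cell-like cells (2106 and 5884). It was 1.24 in crypt progenitor-like, 1.12 in tuft-like, 1.12 in macrophage-like and 0.96 in goblet-like cells. Rps18 was higher in FMTg in each of these 7 classes and had the highest ratio of the members measured in all of them. Of its enterocyte-like UMIs, 457 in Tg and 1520 in FMTg lay in cluster 8 (124 and 71 cells). At the 10% limit its ratio in enterocyte-like cells was -0.05. Without Rps18 the large-subunit odds over all cells differed by -0.04.

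Rps28 and Rps29, short small-subunit proteins near the messenger RNA channel, followed. Rps28 had 6293 and 11663 UMIs (1.16), and Rps29 had 2020 CPM in Tg and 4335 CPM in FMTg (1.10). Across the 7 classes Rps28 ran from 0.63 to 1.17 and Rps29 from 0.70 to 1.02. These 2 and Rps18 were the 3 members at least 1.5-fold higher in every one of the 7 classes. The share of all genes meeting this every-class rule is not given here, so the count describes the members only. Rps27, a zinc-finger protein of the small subunit, had 0.91 over all cells and between 0.38 and 0.96 by class. Rps27rt, a single-exon copy of Rps27, had 869 and 1612 UMIs (1.16), and reads of these close copies cannot be told apart with certainty. On the large-subunit side Rpl38 had 0.87 over all cells and 0.26 to 0.81 by class, Rpl39, which lines the exit tunnel of the growing peptide, 0.85 and 0.36 to 0.81, and Rpl37 0.80 and 0.34 to 0.74.

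Rps18 and Rps28 lie close together on chromosome 17, Rps18 from 33951999 to 33956001 and Rps28 from 33819027 to 33824562 (mm10, both on the minus strand), in the neighbourhood of the major histocompatibility genes. Of 29 other genes within 250 kb of Rps18 with at least 100 UMIs over all cells, 3 were at least 1.5-fold higher in FMTg. These were Ring1 at 1.496, and Kank3 and H2-Oa both at 0.69. Of the 29, 1 was lower (Angptl4 at -1.79), and their median log2 ratio was 0.02. Over all genes with at least 20 UMIs, 12.1% were called higher and 9.75% lower. That minimum is lower than the one for the 29, so these shares are not like for like. Of the genes next to the pair, Vps52, whose annotation overlaps Rps18, had 453 and 350 UMIs (-0.11), B3galt4 had -0.40 and Ndufa7, beside Rps28, 0.20. Rps29 lies on chromosome 12 and Rps27 on chromosome 3.

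At the other end Rpl27, a large-subunit protein, had 9140 Tg and 6797 FMTg UMIs (-0.16), and it was lower in all 7 classes, between -0.66 in goblet-like and -0.36 in tuft-like cells. Rpl10, which joins the large subunit late in its assembly, had 34005 and 27551 UMIs (-0.04), with -0.32 in enterocyte-like, -0.22 in T-cell-like, -0.24 in B-cell-like and 0.05 in macrophage-like cells. Rps2 had 0.19 over all cells but lay below 0 in the 7 classes, with -0.21 in enterocyte-like, -0.10 in T-cell-like, -0.16 in B-cell-like and -0.49 in macrophage-like cells. Rpl7a had -0.15, Rps19bp1 -0.16 (-0.44 to 0.11), Rpl7l1 0.02 (-0.21 to 0.25) and Rpl36al -0.06 (-0.16 to 0.05) in enterocyte-like cells. Over all cells these last 3 were at 0.13, 0.10 and 0.12. Without cluster 4, Rpl27 was at 0.10, Rpl10 at 0.20, Rps2 at 0.50 and Rpl7a at 0.34 in enterocyte-like cells. Within single clusters these 4 lay above 0 in clusters 4 and 8 and below 0 in clusters 3 and 13, where Rps2 was at -0.42 and -0.43 and Rpl27 at -0.28 and -0.63. Of 81 members measured in all 7 classes, 38 lay above 0 in every class and 3, Rpl27, Rps2 and Rpl36al, below 0 in every class. With TMM scaling Rpl36al was at 0.05 in T-cell-like cells. These counts have no share of all genes under the same rule beside them and describe the members only.

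**Figure D3:**
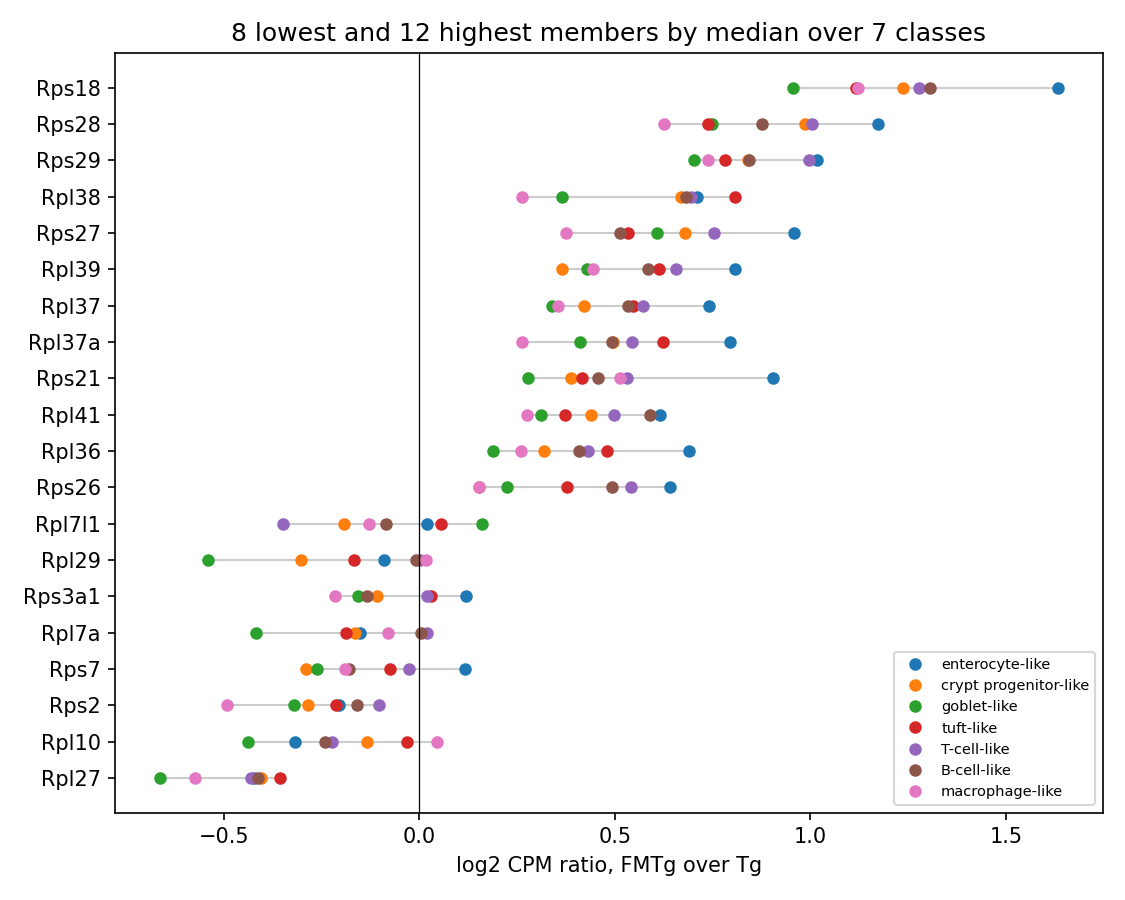
Log2 CPM ratio of FMTg over Tg (x axis) for the 12 members with the highest and the 8 with the lowest median over 7 cell classes (rows), with 1 point per class. Rps18, Rps28 and Rps29 lie at least 1.5-fold above 0 in every class, and Rpl27 lies below 0 in every class.

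A few members differed between classes rather than moving with the rest. Rps19, a small-subunit protein needed for red cell formation, had 4674 and 6168 UMIs in enterocyte-like cells (0.79) and 12740 and 18777 in T-cell-like cells (0.64). In B-cell-like cells it had 11779 and 14716 (0.14), and in crypt progenitor-like cells 1326 and 6317 (0.06, -0.02 to 0.15). Rpl12, part of the base of the stalk, had 0.83 in enterocyte-like, 0.23 in T-cell-like, 0.03 in B-cell-like and -0.21 in macrophage-like cells. Within the enterocyte-like class Rpl12 was at 2.01 in cluster 8 and -0.79 in cluster 3, and Rps18 at 2.80 and 1.03. These genes were picked out after their values had been seen.

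Short members had higher ratios than long ones in every class examined. The members were divided at 120 and 200 codons, bounds chosen after the values had been seen, which gave 21 short, 39 middle and 25 long genes. Over all cells the median log2 ratio was 0.73 for the 21 measured members under 120 codons, 0.45 for those of middle length and 0.30 for the 23 measured with 200 or more. In enterocyte-like cells the medians were 0.70, 0.35 and 0.15, in T-cell-like cells 0.53, 0.21 and 0.05, in B-cell-like cells 0.47, 0.13 and -0.02 and in crypt progenitor-like cells 0.34, 0.07 and -0.09. Spearman's rho between codons and ratio over the 81 members with at least 100 UMIs, leaving out Rps18, was -0.62 in enterocyte-like, -0.74 in T-cell-like, -0.78 in B-cell-like and -0.75 in crypt progenitor-like cells. These correlations run across genes of the same 2 libraries and describe them only. Rps18, with 152 codons, stood apart from this trend, as did Rpl27 with 136 on the low side.

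Other genes did not show the same gradient by coding length. Over all cells the medians of other genes were -0.02 under 120 codons, -0.01 at middle length and 0.07 at 200 or more, and in T-cell-like cells -0.03, -0.12 and -0.10. By the length of the main transcript the picture was mixed. Other genes with transcripts under 600 bases had a median of 0.03 in T-cell-like cells, against -0.10 for longer ones. In B-cell-like cells the values were 0.04 and -0.10, in crypt progenitor-like cells 0.21 and -0.04, but in enterocyte-like cells -0.11 and 0.06. Members with transcripts under 600 bases had 0.45 in T-cell-like, 0.41 in B-cell-like, 0.32 in crypt progenitor-like and 0.69 in enterocyte-like cells. The 7 measured small-subunit members under 120 codons had a median of 0.91 over all cells and the 14 large-subunit ones 0.70. The part of transcript length in these ratios was not tested.

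**Figure D4:**
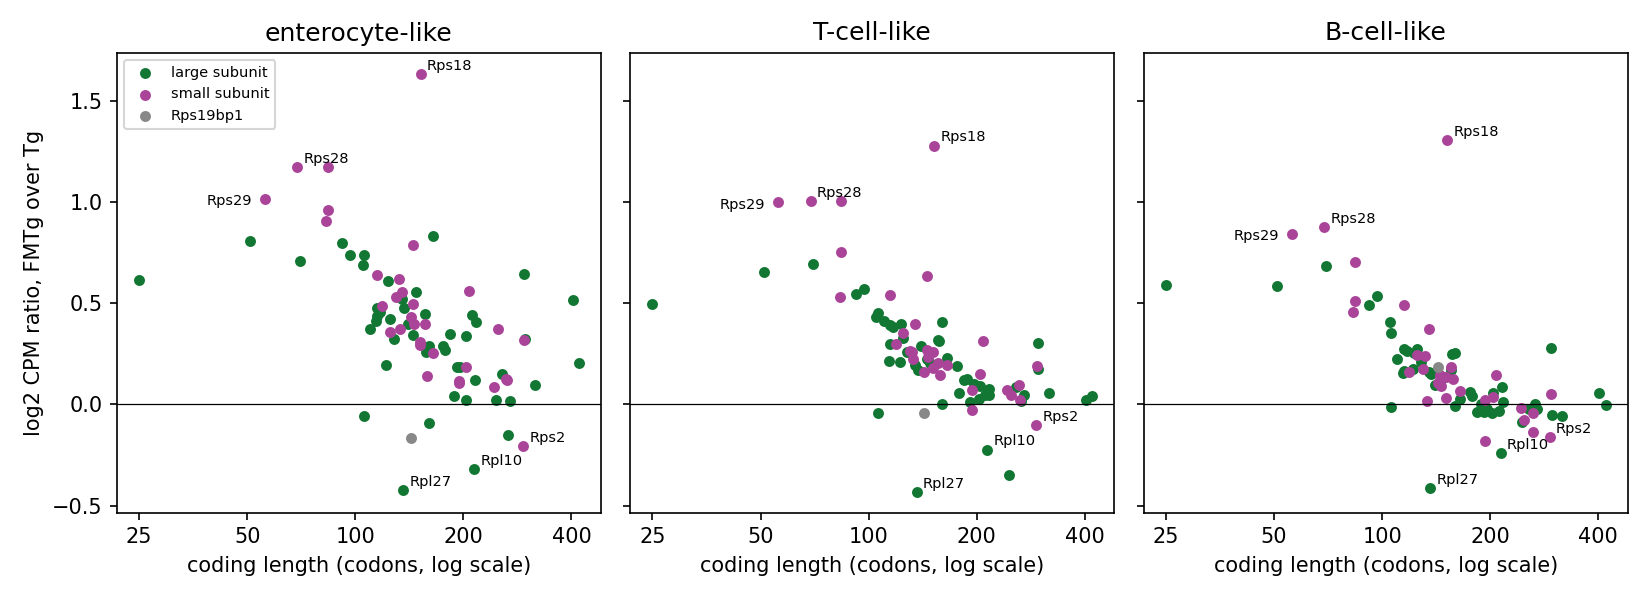
Log2 CPM ratio of FMTg over Tg (y axis) against coding length in codons (x axis, log scale) for members with at least 100 UMIs in enterocyte-like, T-cell-like and B-cell-like cells, coloured by subunit. The points slope downwards with length in each panel, Rps18 lies far above and Rpl27 below the others of similar length.

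Members also made up different parts of the ribosomal protein RNA in epithelium and leukocytes, and these differences were shared by the libraries. For each member its share of the member UMIs was compared between the compartments. Of 82 members with at least 100 UMIs, 70 had the same direction in Tg and FMTg, and Pearson's r between the libraries was 0.94 over these 82 genes, which share the 2 libraries' cells and have no p-value here. In both libraries 9 members took at least a 1.5-fold larger share in the epithelium and 3 a smaller one, which became 4 and 0 at the 10% mitochondrial limit. Rpl41, the shortest member, was 1.65% of epithelial and 0.72% of leukocyte member UMIs in Tg (log2 ratio 1.20) and 1.68% and 0.81% in FMTg (1.05). Rpl7a took 0.99% and 0.44% in Tg (1.18) and 0.69% and 0.36% in FMTg (0.95). Rpl28 had 0.93 in Tg and 0.90 in FMTg, Rpl7l1, a relative of Rpl7 that acts in ribosome assembly, 1.32 and 1.52, and Rps19bp1 1.46 and 1.33. The other 4 were Rpl36al, Rpl24, Rpl31 and Rpl22l1.

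On the leukocyte side Rpl12 took 0.63% of epithelial and 1.41% of leukocyte member UMIs in Tg (-1.16) and 0.85% and 1.37% in FMTg (-0.68). Rps15a, of the small subunit, took 1.27% and 2.42% in Tg (-0.92) and 1.47% and 2.48% in FMTg (-0.76), and Rps27rt had -0.69 and -0.71. Rps24, at -0.53 and -0.48, and Rps21, at -0.55 and -0.45, came next and did not reach 1.5-fold. Among epithelial classes, enterocyte-like cells gave larger shares than crypt progenitor-like cells to Rps27 (0.96 in Tg and 0.95 in FMTg), and, among others, to Rps14 and Rpl10, and smaller ones to Rpl14 (-1.10 and -0.93), Rpl3, Rpl12, Rps2 and Rps18. Between T-cell-like and B-cell-like cells only Rps20 reached 1.5-fold in both libraries, with the larger share in B-cell-like cells (-0.66 and -0.62).

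**Figure D5:**
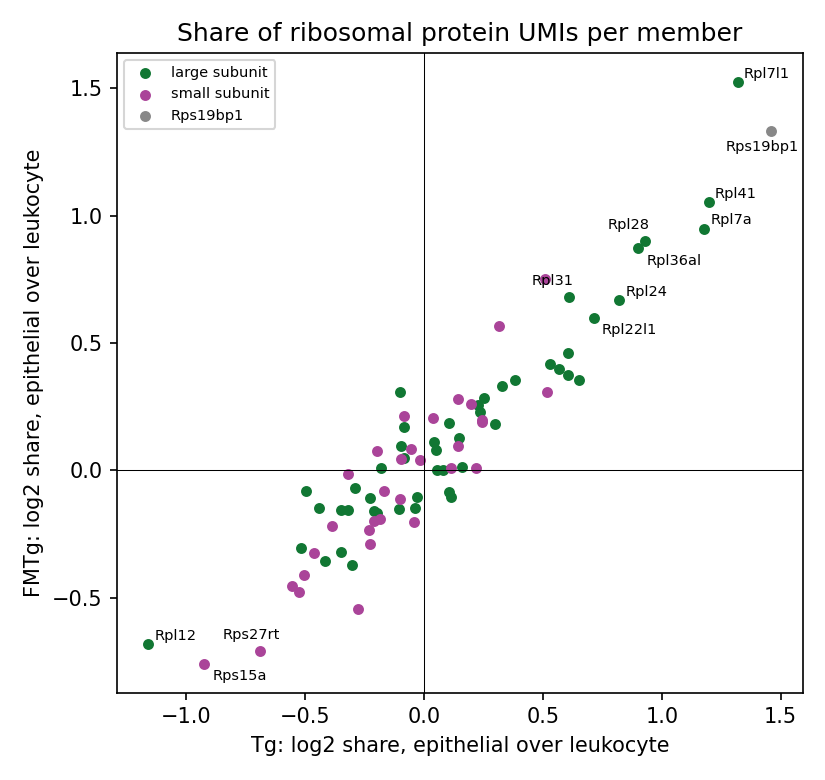
Log2 ratio of each member's share of ribosomal protein UMIs, epithelial over leukocyte compartment, in the Tg library (x axis) and the FMTg library (y axis), coloured by subunit. The points follow the diagonal, with Rpl7l1, Rpl41 and Rpl7a at the epithelial end and Rpl12 and Rps15a at the leukocyte end.

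A list of 7 members known to bind Mdm2 was examined, which may leave out other members that bind it. The medians of these 7 lay slightly below those of all members. Their median log2 ratio was 0.38 over all cells, 0.31 in enterocyte-like, 0.18 in T-cell-like and 0.04 in B-cell-like cells, and 0 of 7 reached 1.5-fold in any of these, where 5.12% to 16.2% of all genes were called higher, so the count says little for so few genes. Rpl5 had 2087 UMIs in Tg and 2000 in FMTg in enterocyte-like cells (0.32), and Rpl11 had 3639 and 3355 (0.27). Rpl23 was at 0.40, Rpl26 at 0.34, Rps14 at 0.31, Rps7 at 0.12 and Rps3 at 0.09 in the same cells. In T-cell-like cells Rpl5 was at 0.18 and Rpl11 at 0.06. The genes of the stalk proteins, which call in the elongation factors, were higher too over all cells: Rplp0 was at 0.28, Rplp1 at 0.45 and Rplp2 at 0.55. Rpsa, the small-subunit protein also known as the laminin receptor, was at 0.41.

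Paralogs are reported with caution, since copies this alike can exchange reads. In the pair Rpl22 and Rpl22l1, the former had 19326 and 22083 UMIs over all cells (0.46) and the latter 11879 and 13586 (0.46). Rpl36a was at 0.71 and its intronless relative Rpl36al at 0.12 over all cells. Rpl39l, a paralog of Rpl39, had 6 UMIs in Tg and 21 in FMTg, of which 3 and 20 lay in T-cell-like cells, where it counts among the 9 members called higher. Rpl3 was at 0.36, Rpl7 at 0.27, Rpl36 at 0.73 and Rps4x at 0.30. Leaving out the listed paralogs, the median in enterocyte-like cells was 0.38.

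Ribosome genes outside the symbol rule differed from each other. In enterocyte-like cells Fau, whose product is cleaved into a small-subunit protein, had 26334 and 19978 UMIs, a log2 ratio of -0.01 (-0.04 to 0.01). Rack1, a scaffold on the small subunit, had 2762 and 2644 UMIs (0.32). In T-cell-like cells Fau was at 0.20 and Rack1 at 0.09.

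Other genes of protein synthesis were examined beside the members. Of 33 translation factors in enterocyte-like cells 0 reached 1.5-fold in either direction, beside 16.2% of all genes called higher and 11.2% called lower. The median over the 33 was -0.04. Tpt1, Eef1a1 and Eif1 had -0.13, -0.0036 and -0.10, and the largest values were Pabpc1, the poly(A)-binding protein, at 0.54, Eif6, which keeps subunits apart, at 0.48, and Eif5b at 0.43. The translation factor median was -0.08 in both T-cell-like and B-cell-like cells. Several of these genes, such as Eef1a1 and Tpt1, are also TOP messenger RNAs. Of 43 measured ribosome biogenesis genes 15 were higher and 2 lower in enterocyte-like cells, beside 16.2% and 11.2% of all genes, with median 0.26. The median was instead -0.07 in T-cell-like and -0.0035 in B-cell-like cells, with 0 of 45 called either way. The shares of all genes called higher and lower were 5.49% and 8.65% in T-cell-like and 5.12% and 10.6% in B-cell-like cells. Fbl, the methyltransferase of ribosomal RNA, had 61 and 137 UMIs (1.55) in enterocyte-like cells, Nifk 0.69 and Ltv1, an export factor of the small subunit, -0.81, while Npm1 was at 0.20, Rrp1 at -0.13 and Ubtf at 0.15.

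Of 18 genes of the mTOR pathway, 5 were higher and 3 lower in enterocyte-like cells, where 16.2% and 11.2% of all genes were. Eif4ebp1, a repressor of cap-dependent translation, had 198 and 491 UMIs (1.70), and Sesn2, a stress-induced inhibitor of mTOR, 189 and 366 (1.34). Sesn1 was at -0.84, Eif4ebp2 at 0.52 and Rheb, the activator of mTOR, at -0.28. The genes of the mitochondrial ribosome, a separate family of 78, had medians of -0.34 in enterocyte-like, -0.10 in T-cell-like and -0.13 in B-cell-like cells. In enterocyte-like cells 1 of these was called higher and 14 lower, against 19 and 0 of the cytosolic members and 16.2% and 11.2% of all genes. The enterocyte-like values of all these related lists pool clusters, and cluster 4 held 5.46% of the Tg and 53.7% of the FMTg cells. Values by cluster are not given here for these lists.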

How the data were processed

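Small intestine cells of 1 Tg and 1 FMTg mouse were captured with the 10x Genomics Chromium 3' protocol, per the labels' protocols. The authors deposited raw UMI counts per gene and barcode, made with CASAVA 1.8.1 and Cell Ranger 3.0 on mm10 per the submitters' processing notes, which give no annotation release. Groups followed the genotype labels. With 1 library per group no test was run. Ratios of summed counts have exact conditional binomial intervals, and shares exact Clopper-Pearson intervals, at 95%, for counting error only.

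Barcodes had to have at least 500 UMIs, 300 genes and no more than 25% of UMIs from mitochondrially encoded genes. The highest scrublet scores (scanpy 1.11.5) were removed at 0.8% per 1000 barcodes, 154 Tg and 144 FMTg cells. Cells were clustered together on 2000 variable genes without the members and related lists, 30 principal components and 20 neighbours, with leidenalg 0.10.2 at resolution 1. A cluster took the name of the marker list with the highest mean ratio, if at least 3 of its markers were detected and raised and no other list had as many among the 10 leading genes, and 3 clusters stayed unnamed. UMIs were summed per class and scaled to the class total (CPM), and a gene needed 20 UMIs over both libraries.

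Named genes were the 5 highest and 5 lowest ratios in enterocyte-like and in all cells among members with at least 100 UMIs, the 3 members of each subunit with the most UMIs, the fixed lists, the 5 members most unequal between compartments in each direction, and up to 3 genes with the most UMIs and 3 with the largest ratio from each related list. Members, lists, naming rules and length bounds were chosen with earlier results of these data known. Positions come from GENCODE vM21 and start sites from RefSeq. The calculation of medians and intervals was checked on simulated data: in the enterocyte-like simulation of 10489 genes a true member median of 0.37 was found as 0.37, and intervals held the true ratio for 95.5% of genes. This concerns counting error only and says nothing of differences between mice, libraries or numbers of cells. Alternatives covered the mitochondrial limit, UMI minimum, doublets, resolution, scaling (edgeR 4.0.16 for TMM, DESeq2 1.42.0 for size factors, other totals), equal weight per cell, gene minimum, paralogs and clusters mostly of 1 library. Leaving out short members or Rps18 was added after the data had been seen. The work ran in R 4.3.3 and Python 3.11.15 with pandas 2.3.3, scipy 1.17.1, numpy 2.4.6 and matplotlib 3.10.9, at seed 1. Values of some genes are not reported here.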

Additional observations from a re-analysis of the deposited data

Results flagged for a closer look

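Enteroendocrine-like cells, the hormone-producing cells of the epithelium, were the only one of the 10 classes in which ribosomal protein genes took a smaller share of UMIs in FMTg. The share was 6.45% in the Tg and 5.57% in the FMTg library, so the log2 ratio was -0.21 (counting interval -0.25 to -0.17), and the median over 79 members was also -0.21. The class rests on 16 and 15 cells, with median depths of 5962 and 12917 UMIs, and on 1 library per genotype. The 14 enterocyte markers summed to 4935 CPM there in Tg and 13222 CPM in FMTg, and their part in the result was not tested. The difference from the other classes was not tested.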

How the results depend on the processing

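Over the alternatives, 45 of 70 member medians, 31 of 42 large-subunit differences and 14 of 42 member shares stayed within their counting interval, and 1, 2 and 1 turned direction. The all-cell member median of 0.45 was 0.38 at a 10% mitochondrial limit, 0.15 at 50%, 0.33 with no limit, 0.39 with TMM, 0.38 with DESeq2 size factors, 0.47 without mitochondrial and 0.40 without abundant genes in the total, 0.30 with equal weight per cell, 0.73 without clusters mostly of 1 library and 0.38 without members under 120 codons. In enterocyte-like cells (0.37) it was -0.051 at 10%, 0.30 with TMM, 0.31 with size factors, 0.31 without abundant genes, 0.87 without cluster 4 and 0.31 without short members. In T-cell-like cells (0.21) it was 0.29 at 10%, 0.31 with TMM, 0.31 with size factors, 0.26 without mitochondrial genes and 0.17 without short members, and in B-cell-like cells (0.13) 0.22 at 10%, 0.23 with TMM, 0.23 with size factors and 0.055 without short members.

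The large-subunit difference over all cells (-0.05) was -0.0036 at 10%, -0.055 with no limit, -0.059 with equal weight, -0.042 without short members and -0.035 without Rps18. In enterocyte-like cells it was 0.073 at 10%, in T-cell-like cells -0.033 at 10% and -0.056 without Rps18, and in B-cell-like cells 0.045 at 10%, -0.041 with equal weight and -0.0093 without Rps18. At 10% the members unequal between compartments numbered 4 higher and 0 lower. The enterocyte-like share ratio was -0.071 at 10%. Of 500 values of named members 13 turned where the interval of the reported value did not hold 0. Rps19bp1, Rpl7l1 and Rpl36al, where it held 0, also changed sign under some settings. At 10% these were Rpl10 over all cells (0.025), Rpl10 (0.20), Rpl7a (0.23) and Rps18 (-0.047) in enterocyte-like cells, and Rps2 in T-cell-like (0.034) and B-cell-like cells (0.31). Rpl36al was at -0.20 over all cells at 50%. Without clusters mostly of 1 library Rpl27 (0.13) and Rpl10 (0.23) turned over all cells, and Rpl27 (0.10), Rpl10 (0.20), Rps2 (0.50) and Rpl7a (0.34) in enterocyte-like cells. The cause was not tested. At 10% only 55 Tg and 9 FMTg enterocyte-like cells were left. No paired analysis was possible because each group has 1 library and the labels carry no replicate number.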
